A study of Mus musculus with 4 samples.

Results

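Transcripts of 9 genes that mark retinal ganglion cells and their axons (Pou4f1, Thy1, Sncg, Rbpms, Slc17a6, Nefl, Nefm, Nefh and Stmn2) were followed in mouse eyes before and after light exposure. The genes were chosen by name, with earlier results of these data known. All 9 were found among the 22558 gene symbols of the deposited table. Retinal ganglion cells are the output neurons of the retina. Their cell bodies and messenger RNA lie mostly in the innermost nuclear layer, and their axons form the optic nerve. Each axon is filled with neurofilaments, polymers of a light, a medium and a heavy subunit that set axon calibre. In optic nerve injury and glaucoma, loss of ganglion cell transcripts is a standard sign of damage, whereas light damage is known mainly as a disease of photoreceptors.

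All mice were Abca4-/-Rdh8-/- and 6 weeks old, so the unexposed control eyes carried the same pair of deletions as the exposed eyes. Abca4 (a photoreceptor flippase) and Rdh8 (a photoreceptor retinol dehydrogenase) both help to clear all-trans-retinal, and mice lacking both serve to study retinal degeneration after light. The control had no light exposure, and the other samples were taken 3 h, 24 h and 7 days after it. The tissue label reads whole eye although the extraction text speaks of retinas. Each sample stands for eyes of 3 mice, with 1 deposited value per gene and condition, so there is no spread between replicates and no test was possible.

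Values are FPKM, mapped fragments scaled to transcript length and sequencing depth, so that levels of different genes can be compared per length. Changes are log2 differences of FPKM + 1, set against the 14194 genes with a mean of at least 1 FPKM. The 26 lens genes listed summed to 142468 to 164745 FPKM per sample, so lens RNA was included. The depth is not stated. It was estimated from olfactory receptor genes seen in a single sample, whose median value stands for about 1 fragment (0.0448 FPKM in the control and 0.0467, 0.0349 and 0.0255 at 3 h, 24 h and 7 days). On that estimate the counting error of a member's level ran from 0.849% (Nefl at 7 days) to 5.86% (Pou4f1 at 3 h). It does not cover the spread between animals. The Y-linked genes Ddx3y and Eif2s3y were at 6.59 and 6.80 FPKM at 7 days, and no Y-linked gene of the list was above 0.0137 FPKM elsewhere. Xist, a transcript of female cells, was at 47.2 FPKM in the control, 53.8 at both 3 h and 24 h and 37.1 at 7 days. The 7-day sample thus held Xist as well as Y-linked transcripts. The mix of sexes therefore changes together with time in that sample, and their parts cannot be told apart.

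The ganglion cell and neurofilament transcripts stayed close to their control level at every time. No member differed from the control by 0.5 log2 units or more at any time, and the largest difference was 0.261 log2 units (Stmn2 at 3 h). The FPKM of any member lay between 0.822 and 1.05 times its control value. Among all genes, 2.56% were at least 0.5 log2 units higher at 3 h and 1.44% lower. The shares were 2.71% and 2.94% at 24 h and 1.19% and 0.986% at 7 days. A count of 0 of 9 members is near that background. The shares past 1 log2 unit were 0.789%, 1.11% and 0.599%, again with 0 members.

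The small differences that were present pointed mostly downwards. At 3 h all 9 members were below their control level, with a median log2 change of -0.14, while 45.7% of all genes were below 0 and their median was 0.02. At 24 h the count was 7 of 9 (48.6% of all genes) with a median of -0.07, and at 7 days it was 7 of 9 (49.1%) with a median of -0.09. The control held the highest value of 6 members (22.1% of all genes) and the 3 h sample the lowest value of 7 (25.6%). Summed over the members, FPKM was 244.9 in the control and 223.1, 231.2 and 235.0 at 3 h, 24 h and 7 days. In whole-eye RNA, fewer cells of a type and less RNA per cell cannot be told apart.

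How far the share of genes below 0 stands from the middle depends on the scaling. When samples were scaled to the same sum without lens, surface epithelium, muscle and erythroid genes, 80.0% of all genes lay below 0 at 3 h. Their median was then -0.14 and that of the members was -0.30, with all 9 below 0. Under it 8 of 9 members were below 0 at 24 h (62.8% of all genes), and 9 of 9 at 7 days (75.0%) with a member median of -0.20. The other scalings gave smaller shifts. When that sum held protein-coding genes alone, 60.7%, 57.6% and 60.2% of all genes lay below 0 at 3 h, 24 h and 7 days. Scaling by the median ratio over genes gave 48.8%, 49.5% and 50.4%.

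**Figure D1:**
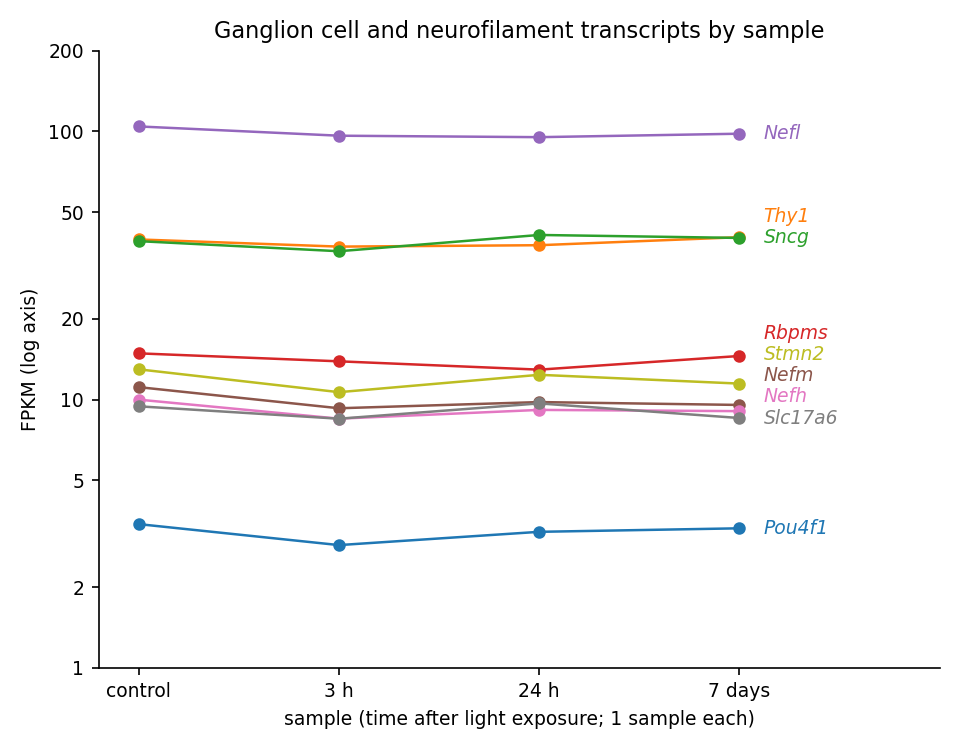
FPKM (log axis) of each of the 9 genes in the control and at 3 h, 24 h and 7 days after light, 1 sample per point. The lines run almost flat, from Nefl at 95.2 to 104.4 FPKM down to Pou4f1 at 2.87 to 3.43 FPKM.

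The order of levels was nearly the same in every sample. Nefl was highest, Thy1 and Sncg followed close together, then came Rbpms, Stmn2 and a group of Nefm, Nefh and Slc17a6, and Pou4f1 was lowest. Thy1 led Sncg in the control, at 3 h and at 7 days, and Sncg led Thy1 at 24 h. Nefh and Slc17a6 also changed places at 24 h. With 1 value per condition these neighbours cannot be separated.

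Pou4f1 encodes the transcription factor Brn3a, which maintains the identity of most ganglion cells. It was at 3.43 FPKM in the control and 2.87, 3.21 and 3.31 at 3 h, 24 h and 7 days. The 3 h sample was lowest and the other samples lay close together, and the log2 change at 3 h was -0.20 with a counting error of 0.11. Here and below, a counting error beside a log2 change is that of the plain FPKM ratio (0.835 for Pou4f1 at 3 h). The added 1 makes the change itself smaller than the plain ratio gives, most for low genes such as Pou4f1. Pou4f2 (Brn3b), needed for ganglion cell differentiation, was at 1.29, 0.850, 0.959 and 1.07 FPKM in the same order. Pou4f3 (Brn3c), found in a subset of ganglion cells and in sensory hair cells, was at 1.55, 1.098, 1.144 and 1.02 FPKM. Each of these 3 POU-domain genes was highest in the control, as were 22.1% of all genes. Pou4f1 made up 54.7% of the summed FPKM of the 3 in the control and 61.3% at 7 days.

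Thy1, a glycolipid-anchored surface protein used to label and purify ganglion cells, was at 39.6 FPKM in the control and 37.2, 37.7 and 40.4 at 3 h, 24 h and 7 days. It varied least of the 9, with a span of 0.114 log2 units between its highest and lowest sample. Only 15.3% of all genes had a span that small or smaller. Thy1 is also carried by T cells and fibroblasts. Of the 9 further T cell genes found, 1 (Cd247) reached a mean of 1 FPKM, and Cd3e was at no more than 0.117 FPKM in any sample. The 9 together summed to 7.86 FPKM in the control and 8.77, 7.30 and 7.37 at 3 h, 24 h and 7 days. The 8 further fibroblast genes summed to 2037, 1471, 1438 and 1834 FPKM, and Col3a1, a fibrillar collagen, was at 165.9, 76.2, 60.8 and 98.9 FPKM. Col1a1, another fibrillar collagen, was at 468.4, 223.9, 230.5 and 357.5 FPKM. Thy1 differed less between these samples, and the part of fibroblasts in its level was not tested.

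Sncg encodes gamma-synuclein, an abundant soluble protein of ganglion cell bodies and axons. It was at 39.0 FPKM in the control and 35.8, 41.1 and 40.1 at 3 h, 24 h and 7 days. The 3 h sample was lowest and the 24 h sample highest, a log2 difference of 0.20 between them with a counting error of 0.07. Sncg had the highest change of the 9 against the control at both later times (0.07 and 0.04). Its relative Sncb (beta-synuclein) was at 65.6, 53.4, 75.2 and 73.2 FPKM and so was likewise lowest at 3 h. Adipocytes also express Sncg. The 10 adipocyte genes summed to 39.0, 88.3, 50.5 and 38.1 FPKM, highest at 3 h, where Sncg was lowest. The lipid carrier gene Fabp4 went from 12.2 FPKM in the control to 37.5 at 3 h, the adipsin gene Cfd from 6.44 to 18.8 and the lipid droplet gene Cidec from 0.520 to 3.31. The part of adipocytes in the Sncg value was not tested.

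Rbpms, an RNA-binding protein restricted to ganglion cells within the retina, was at 14.9 FPKM in the control and 13.9, 12.9 and 14.6 at 3 h, 24 h and 7 days. Its lowest value came at 24 h, with a log2 change of -0.19 and a counting error of 0.07. Rbpms2, its paralogue, was at 7.41, 6.32, 6.89 and 7.73 FPKM and was lowest at 3 h. Outside the retina Rbpms is a gene of smooth muscle. The 10 smooth muscle and pericyte genes had medians of -0.22, -0.33 and -0.09 at 3 h, 24 h and 7 days. Their summed FPKM was 349.3 in the control and 314.1, 292.5 and 345.2 at 3 h, 24 h and 7 days, so it too was lowest at 24 h. Their part in the Rbpms value was not tested.

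Slc17a6 encodes the vesicular glutamate transporter VGLUT2, which loads the transmitter of ganglion cells. It was at 9.44 FPKM in the control and 8.49, 9.68 and 8.54 at 3 h, 24 h and 7 days. The control and 24 h samples were close to each other, and so were the 3 h and 7-day samples. Slc17a7 (VGLUT1), the transporter of photoreceptors and bipolar cells, was at 313.7, 307.0, 248.8 and 273.9 FPKM and made up at least 95.7% of the summed FPKM of the 3 vesicular glutamate transporters in each sample. At 24 h the log2 change was 0.03 for Slc17a6 and -0.33 for Slc17a7.

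Each of the 3 neurofilament genes was highest in the control, as were 22.1% of all genes. Nefl, the light subunit that starts filament assembly, was at 104.4 FPKM in the control and 96.4, 95.2 and 98.1 at 3 h, 24 h and 7 days. The light samples were at 0.924, 0.912 and 0.939 of the control, with counting errors of 1.09% in the control and 0.849% to 1.16% in the light samples. Nefm, the medium subunit, was at 11.1, 9.29, 9.79 and 9.56 FPKM. Nefh, the heavy subunit with a long phosphorylated tail, was at 10.001, 8.49, 9.16 and 9.06 FPKM. Both were lowest at 3 h, with log2 changes of -0.24 and -0.21 and a counting error of 0.07 each.

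The proportions of the subunits barely moved. Nefl made up 83.2% of the summed neurofilament FPKM in the control and 84.4%, 83.4% and 84.1% at 3 h, 24 h and 7 days. The light transcript thus stood at 9.38, 10.4, 9.72 and 10.3 times the medium one and at 10.4, 11.4, 10.4 and 10.8 times the heavy one. Ina, which encodes alpha-internexin and co-assembles with neurofilaments in central neurons, was at 13.0, 11.1, 12.1 and 13.0 FPKM. It was lowest at 3 h and back at its control level at 7 days. The mean neurofilament profile spanned 0.188 log2 units over the 4 samples, below the 0.5 set for naming genes of like pattern, so none are named.

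Prph was the exception among the neuronal intermediate filaments. It encodes peripherin, the filament of peripheral neurons that is also induced in injured neurons, and was at 1.03 FPKM in the control and 0.634, 4.15 and 1.04 at 3 h, 24 h and 7 days. The 24 h sample stood alone, with a log2 change of 1.34 against the control and 1.66 against 3 h. At this low level the added 1 sets the size of the change, and with 0.1 added the values for Prph were 1.91 and 2.54. Prph also belongs to the list of peripheral sensory neuron genes, of which 5 of 12 reached a mean of 1 FPKM. That list summed to 13.0, 18.97, 23.3 and 13.4 FPKM. Its 5 kept genes had medians of 0.06, 0.65 and 0.03 at 3 h, 24 h and 7 days. At least 0.5 log2 units higher were 1, 3 and 0 of them, against 2.56%, 2.71% and 1.19% of all genes. Prph and Calca reached a mean of 1 FPKM only through their high 24 h values. The filter thus favours a high count and median at 24 h, and neither can be read as a result about the list. Calca, the gene of calcitonin and its related sensory neuropeptide, was at 0.603, 0.671, 2.16 and 0.771 FPKM and so was also highest at 24 h. Scn10a, a sodium channel of pain-sensing neurons, was listed at 0 in all light samples and at 0.00501 FPKM in the control. The part of peripheral nerve in the Prph value was not tested.

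**Figure D2:**
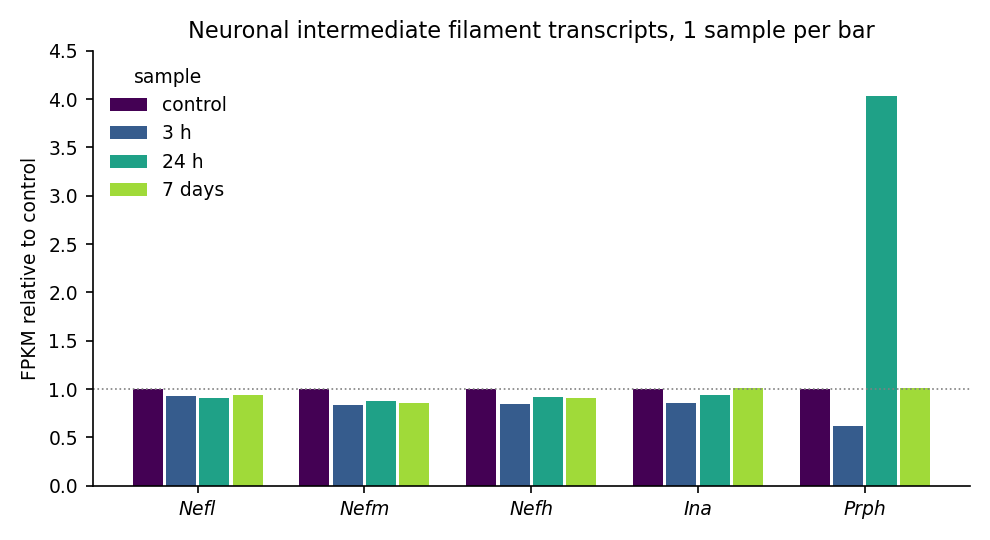
FPKM of 5 neuronal intermediate filament genes relative to the control sample (linear axis from 0), 1 sample per bar. Nefl, Nefm, Nefh and Ina stay near 1 in every sample, and Prph stands out at 24 h (4.15 against 1.03 FPKM).

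Stmn2 encodes stathmin-2, a tubulin-binding protein of axons and growth cones. It was at 13.0 FPKM in the control and 10.7, 12.4 and 11.5 at 3 h, 24 h and 7 days. It had the widest span of the 9 (0.261 log2 units), yet 61.0% of all genes had a span no larger. Its counting error at 3 h was 0.09 log2 units. Stmn3, a related neuronal stathmin, was at 68.8, 72.4, 71.2 and 73.7 FPKM and did not share the low 3 h value. Stmn4 was at 5.80, 7.41, 8.48 and 5.51 FPKM and was highest at 24 h.

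The list of other ganglion cell genes held 22 genes, of which 18 reached a mean of 1 FPKM. Their medians were -0.14, -0.06 and 0.02 at 3 h, 24 h and 7 days, and the last turned to -0.07 under the scaling without lens, surface epithelium, muscle and erythroid genes. None of the 18 was past 0.5 log2 units at 3 h, 2 were higher at 24 h, 1 was higher at 7 days and none was lower at either time. Among all genes 2.71% were at least 0.5 log2 units higher at 24 h and 1.19% at 7 days. With 0.1 in place of 1 added to FPKM, Pou4f2 (-0.55) and Opn4 (-0.53) were past 0.5 downwards at 3 h and Pou4f3 (-0.56) at 7 days. With 0.1 added, 6.09% of all genes were past 0.5 in either direction at 3 h and 3.35% at 7 days. At 3 h the widest differences were those of Opn4 (melanopsin, the pigment of intrinsically photosensitive ganglion cells), at 2.04 and 1.38 FPKM, and Spp1 (osteopontin), at 41.2 and 52.3 FPKM.

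The genes past 0.5 log2 units at 24 h were Gap43 and Kcng4. Gap43, a growth cone protein of growing and regenerating axons, was at 10.2 FPKM in the control and 8.91, 18.1 and 9.93 at 3 h, 24 h and 7 days. The 24 h sample alone was high, with a log2 change of 0.76. Kcng4, a modulatory potassium channel subunit that marks alpha ganglion cells, was at 5.40, 5.53, 9.41 and 6.73 FPKM (0.70 at 24 h). Chrna6, a nicotinic receptor subunit of ganglion cells, had the lowest change of the list at 24 h, at 21.0, 19.02, 15.1 and 20.3 FPKM in the 4 samples (-0.45, or -0.51 under the scaling without lens and the other left-out lists).

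At 7 days the gene past 0.5 was Spp1, at 68.5 FPKM (0.72). Spp1 marks alpha ganglion cells but is also made by macrophages and other cells of the eye, and their part was not tested.

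Several genes of the axon injury response were higher at 3 h and 24 h while the markers of ganglion cells stayed near their control level. The list of 18 genes holds stress-induced factors that many cell types express, and 15 reached a mean of 1 FPKM. Of these, Gap43 and Stmn4 also stand on lists above and the heat shock gene Hspb1 on the lens list. The median log2 change of the 15 was 0.36, 0.47 and -0.04 at 3 h, 24 h and 7 days. At 3 h and at 24 h 5 of 15 were at least 0.5 log2 units higher and none lower, and at 7 days none was past 0.5. Among all genes, 2.56% were that much higher at 3 h and 2.71% at 24 h. The medians at 3 h and 24 h were 0.28 and 0.19 when no filter on low values was applied. Under the scaling without lens, surface epithelium, muscle and erythroid genes the 3 h median was 0.18, with 3 of 15 past 0.5. Of all genes 4.79% were then past 0.5 in either direction at 3 h.

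Tnfrsf12a, a receptor of the tumour necrosis factor family that promotes neurite growth, was at 7.41 FPKM in the control, 20.7 at both 3 h and 24 h and 9.80 at 7 days. Atf3, a stress transcription factor induced in axotomised neurons, was at 2.59, 7.70, 15.4 and 3.31 FPKM. Jun, which is activated in the same neurons, was at 21.9, 51.0, 36.2 and 20.8 FPKM. Not all genes of the list moved much. Map3k12 (dual leucine zipper kinase, which signals axon damage) was at 12.9, 14.2, 13.5 and 12.4 FPKM. Sox11, a regeneration-associated transcription factor, was at 1.13 FPKM in the control and 0.736, 1.04 and 0.864 in the light samples by time. Genes of the surface epithelium were also above the control at 3 h, 16 of the 17 with a mean of at least 1 FPKM. Their median was 0.32 and their sum 5748 FPKM against 4571. At 24 h their sum was 5436 FPKM. Of all genes 45.7% were below the control at 3 h. That share was 80.0% under the scaling without lens, surface epithelium, muscle and erythroid genes, so such counts depend on the scaling. Gfap, a filament of glia that is raised in stressed retina, was at 18.3 FPKM in the control and 15.5, 93.0 and 36.8 at 3 h, 24 h and 7 days. Whole-eye values do not tell in which cells the axon injury transcripts lay, and the part of surface epithelium and glia was not tested.

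**Figure D3:**
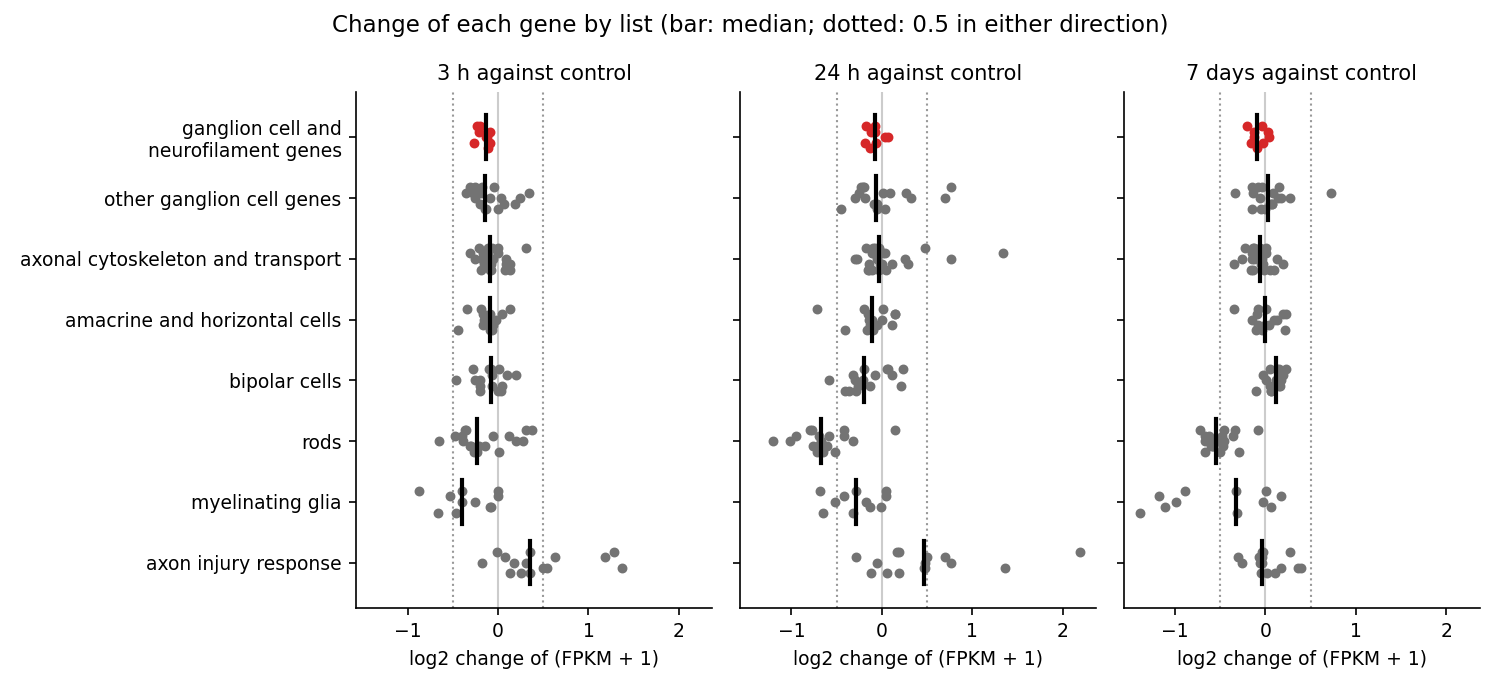
Log2 change of FPKM + 1 against the control for each gene with a mean of at least 1 FPKM (points) and the median (bar) of 8 lists at 3 h, 24 h and 7 days, with dotted lines at 0.5 in either direction. The 9 ganglion cell and neurofilament genes (red) cluster within 0.261 of 0, rods lie lower at 24 h and 7 days, and axon injury genes lie higher at 3 h and 24 h.

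Other retinal neurons give the setting of these values. Amacrine and horizontal cell genes (15 of 20 kept) had medians of -0.09, -0.10 and -0.01 at 3 h, 24 h and 7 days (the last 0.03 among genes with a mean of at least 5 FPKM), with 1 gene past 0.5 at 24 h and none at the other times. Under the scaling without lens, surface epithelium, muscle and erythroid genes 2 were past 0.5 at 3 h, Calb1 (-0.51) and Slc18a3 (-0.56), the vesicular acetylcholine transporter of starburst amacrine cells. Of all genes 4.79% were then past 0.5 in either direction at 3 h. The gene past 0.5 at 24 h was Calb1 (calbindin, a marker of horizontal cells, which also hold neurofilaments), at 16.2 FPKM in the control and 12.5, 9.42 and 12.4 at 3 h, 24 h and 7 days. Bipolar cell genes (16 kept) had medians of -0.08, -0.20 and 0.12, with 1 past 0.5 at 24 h, lower, and none at the other times. Cone genes (14 kept) had medians of 0.04, -0.20 and 0.12. At least 0.5 log2 units lower were 0, 4 and 2 of the cone genes at 3 h, 24 h and 7 days. That much higher were 1, 2 and 1, against 2.56%, 2.71% and 1.19% of all genes. Rod genes stood lower, with medians of -0.23, -0.67 and -0.55. At 24 h 15 of 19 rod genes were at least 0.5 log2 units lower and at 7 days 11 of 19, against 0 of 9 ganglion cell and neurofilament genes at both times. Past 1 log2 unit at 24 h were Nr2e3, a rod transcription factor, at 167.8 FPKM in the control and 72.3 at 24 h, and Pdc (phosducin), at 1046 and 516.2 FPKM. Among all genes 2.94% were at least 0.5 log2 units lower at 24 h and 0.986% at 7 days. Skeletal muscle genes, which lie outside the retina, were low in the same 24 h sample, with a median of -0.69 and 24 of 32 at least 0.5 log2 units lower, and a sum of 2244 FPKM against 3439 in the control. At 7 days their median was -0.21 with 2 of 32 that much lower. The part of tissue composition in the rod values was not tested. These lists were compared by their values only, since all comparisons share the control sample and none has replicates.

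Genes of myelinating glia lay mostly below the control after light. Oligodendrocytes wrap ganglion cell axons in the optic nerve behind the mouse eye, while Schwann cells wrap peripheral nerves. Of 12 listed genes 11 reached a mean of 1 FPKM, with medians of -0.39, -0.28 and -0.33 at 3 h, 24 h and 7 days. The number at least 0.5 log2 units lower was 3, 3 and 5 of 11 at 3 h, 24 h and 7 days, against 1.44%, 2.94% and 0.986% of all genes. The 3 h count was 6 under the scaling without lens, surface epithelium, muscle and erythroid genes and 5 with 0.1 added to FPKM. Under these settings 4.79% and 6.09% of all genes were past 0.5 in either direction at 3 h. Among the 7 genes with a mean of at least 5 FPKM the counts were 2, 1 and 2, and with no filter the 7-day median was -0.55. Of all genes with a mean of at least 5 FPKM, 3.64%, 5.18% and 1.95% were past 0.5 in either direction. The list summed to 217.1 FPKM in the control and 174.6, 185.7 and 158.7 at 3 h, 24 h and 7 days, so the control was highest, as it was for the neurofilaments.

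Several oligodendrocyte genes were lowest at 7 days. Cldn11, the tight junction protein of central myelin, was at 7.65 FPKM in the control and 4.47, 4.51 and 2.30 at 3 h, 24 h and 7 days, and Mobp, a basic protein of oligodendrocyte myelin, at 3.65, 3.36, 3.26 and 1.151 FPKM. Mbp, the myelin basic protein gene, was at 62.7, 47.4, 51.4 and 33.3 FPKM. Over the same 7 days Nefl differed from the control by -0.09 log2 units and Cldn11 by -1.39. How much optic nerve was left on each eye is not stated, and its part in these values was not tested.

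**Figure D4:**
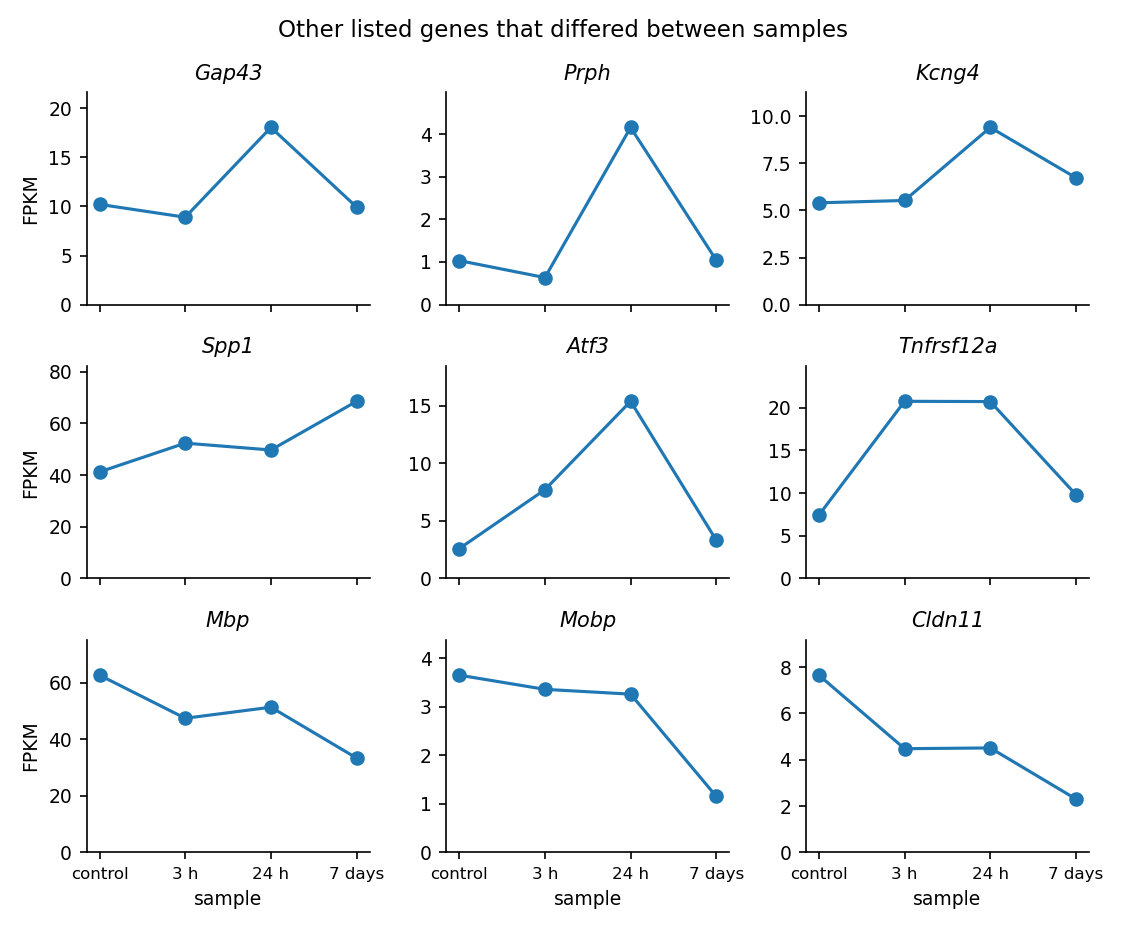
FPKM (linear axes from 0, each with its own scale) of 9 genes outside the ganglion cell and neurofilament set in the control and at 3 h, 24 h and 7 days after light, 1 sample per point. Gap43, Prph, Kcng4 and Atf3 peak at 24 h, Tnfrsf12a is at 20.7 FPKM at 3 h and 24 h, Spp1 is highest at 7 days, and the myelin genes Mbp, Mobp and Cldn11 are lowest at 7 days.

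Successive times were also set side by side, which leaves out the shared control but makes both steps share the 24 h sample. From 3 h to 24 h 7 of 9 members were higher (47.3% of all genes), with a median of 0.10 and a range from -0.10 (Rbpms) to 0.20 (Stmn2). From 24 h to 7 days 4 of 9 were higher (48.5% of all genes), with a median of -0.01 and a range from -0.16 (Slc17a6) to 0.16 (Rbpms). None was past 0.5 log2 units in either step. From 3 h to 24 h 1.92% of all genes were that much higher and 3.09% lower, and from 24 h to 7 days 1.66% and 1.97%. Rbpms and Slc17a6 had opposite signs in both steps, but the first step of Rbpms turned to 0.01 under the scaling without lens, surface epithelium, muscle and erythroid genes, and its -0.10 is close to its counting error of 0.07. Gap43 and Prph stood apart from the members in these steps, with log2 changes of 0.94 and 1.66 from 3 h to 24 h and of -0.80 and -1.34 from 24 h to 7 days.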

How the data were processed

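The authors deposited FPKM values, 1 per gene and condition. The submitters' processing notes name the mm9 build, with alignment and quantification tools TopHat2 (version given as 2) and Cuffdiff 2.2.1, after bcl2fastq 1.8.3. The annotation, the scaling within Cuffdiff and whether the 3 mice of a condition were pooled are not stated there. FPKM sums ran from 626973 (control) to 680305 (3 h), so a few abundant transcripts can shift all other values. Genes with a mean of at least 1 FPKM were kept, 1 was added before taking log2, and size classes of 0.5 and 1 log2 units were used. No test was run (Python 3.11.15, pandas 2.3.3). The log2 calculation returned changes planted by the same formula in simulated data without noise, which checks the code and not the results.

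Counting errors scale the estimated fragment count by each gene's longest coding transcript (GENCODE M21, on another build, lengths only) over the median olfactory coding length of 939 bases. They are approximate. Of 334 list entries 332 were found, 6 genes by an older symbol. Members and lists were chosen with earlier results of these data known. All members are named. From the other lists, the 2 to 4 genes with the widest change and all past 1 log2 unit were the rule. Family members and a few markers with a known role (Mbp, Map3k12, Sox11, Cd3e, Scn10a, Gfap, Slc18a3, Xist) were named after their values were seen. A few genes that belong to the lists are not reported here. Alternatives were another pseudocount, 2 other filters, 3 other scalings and leaving members out.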

Additional observations from a re-analysis of the deposited data

How the results depend on the processing

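No alternative brought any member past 0.5 log2 units in any of the 5 comparisons. Changes of members were held to a tolerance of 0.2 log2 units, about the size of the changes themselves, so staying within it says little. The count of members lower at 24 h than at 3 h depended on the scaling. It was 2 of 9 as reported, 0 when samples were scaled to the same sum without lens, surface epithelium, muscle and erythroid genes, and 1 when that sum held protein-coding genes alone. The first scaling shifts the 3 h sample by -0.18 log2 units against the control. The median change of the members ranged over the alternatives from -0.30 to -0.13 at 3 h, from -0.13 to -0.07 at 24 h and from -0.20 to -0.04 at 7 days, each against the control. It ranged from 0.08 to 0.20 from 3 h to 24 h and from -0.05 to 0.01 from 24 h to 7 days, where its sign is not settled. A mean of at least 5 FPKM drops Pou4f1. Genes outside the set moved more, mainly low ones when 0.1 was added: Prph from 1.34 to 1.91 at 24 h and Cldn11 from -1.39 to -1.69 at 7 days. No paired analysis was possible because each condition has 1 sample. For the same reason no sample could be left out, and differences of the size seen here cannot be set against the spread between animals.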

Other observations

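Axonal cytoskeleton and transport genes, a list of 25 genes that all reached a mean of 1 FPKM, had small changes like the neurofilaments. Their medians were -0.09 at 3 h, -0.03 at 24 h and -0.06 at 7 days, with 17, 16 and 19 of 25 below the control, against 45.7%, 48.6% and 49.1% of all genes. Under the scaling without lens, surface epithelium, muscle and erythroid genes 80.0%, 62.8% and 75.0% of all genes lay below 0. The shares were 60.7%, 57.6% and 60.2% when that sum held protein-coding genes alone. The exceptions past 0.5 log2 units were Prph and Gap43, both higher at 24 h, where 2.71% of all genes were that much higher. Prph reached a mean of 1 FPKM only through its 24 h value. With 0.1 added to FPKM, Stmn4 was past 0.5 at 24 h as well (0.54) and Prph was lower at 3 h (-0.62). Of all genes 6.09% were then past 0.5 in either direction at 3 h and 8.08% at 24 h. Kif5a, a neuronal kinesin that carries neurofilaments along axons, was at 35.4 FPKM in the control and 31.1, 31.9 and 31.5 at 3 h, 24 h and 7 days, and so, like Nefl, Nefm and Nefh, was highest in the control. Map1b, a microtubule-associated protein of growing axons listed under its older name Mtap1b, was at 39.1, 43.0, 48.0 and 30.6 FPKM. It was highest at 24 h, as Gap43 was, and lowest at 7 days. Mapt, which encodes tau, was at 16.4, 15.1, 15.5 and 15.0 FPKM.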
